A study of Mus musculus with 19 samples.

Results

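Alas2, Fech, Slc4a1, Epb42, Klf1, Epor and Tfrc are 7 genes of red cell precursors. Such cells use them to make heme, build the red cell membrane, switch on erythroid genes, answer to erythropoietin and take up iron. They were taken by gene symbol from a list of 8 genes, of which 1 was not analysed here, and they are 7 of the 27179 genes in the expression table. All 7 were among the 14186 genes that were tested, those with an RPKM (reads scaled to the length of the gene and the size of the library) of at least 0.5 in at least 4 mice.

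The table holds bulk RNA-seq of splenocytes from 19 mice of the FCG model (4 Core Genotypes), with 1 library per mouse. The FCG colony was bred from XY- Sry males, which are B6.Cg-Tg(Sry)2Ei Srydl1Rlb/ArnoJ, and C57BL/6J females. In these mice the testis-determining gene Sry is missing from the Y chromosome and present as a transgene on an autosome, so that ovaries or testes occur with XX or with XY sex chromosomes. The groups were 5 XXF and 4 XYF mice, the gonadal females, and 5 XXM and 5 XYM mice, the gonadal males that carry the Sry transgene. All 19 mice had been given heat-killed Streptococcus pneumoniae strain R36A (HKSP) by the intraperitoneal route, and their spleens were taken 7 days later. Unimmunised mice are not among the samples, and no age of the mice is given. The methods of the study state that red cells were lysed in Tris-buffered ammonium chloride while the spleens were made into cell suspensions. The labelled tissue was checked with Cd79b, the most abundant of the B cell markers, which lay between 320.0 and 1440.7 RPKM, so markers of splenic lymphocytes were present in every mouse. The libraries held between 11263753 reads (XYF F6) and 19962022 reads (XYM 13), with a median of 17391536. XYM 9 and XXM 8 each lay far from the rest of their group: the 7 genes together reached 1002.4 RPKM in XYM 9 and 143.9 to 383.0 RPKM in the other XYM mice, and 781.5 RPKM in XXM 8 and 260.0 to 403.5 RPKM in the other XXM mice. XYM 9 and XYF F9 also stand apart in markers of myeloid cells, which summed to 46538.8 and 45753.6 RPKM, against 3122.2 to 16071.8 in the other mice of these groups and of XXF and XXM. No sequencing batch is given, and the running numbers in the library titles go group by group, so that an effect of handling the groups apart and an effect of group cannot be told apart.

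Red cell precursors, the erythroblasts, mature next to macrophages in the bone marrow and, in mice, also in the red pulp of the spleen, where red cell production grows under anaemia, infection and other stress. They take up iron bound to transferrin, make heme in a chain of enzymes that starts and ends in the mitochondria, load it into globin, and brace the plasma membrane with a protein skeleton tied to band 3. Erythropoietin keeps the early precursors alive, and the transcription factors GATA1 and KLF1 switch on most genes of this programme.

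Alas2 (Entrez Gene 11656, X chromosome of GRCm38 from 150547417 to 150570622) encodes the erythroid form of the enzyme that makes the first compound of the heme pathway. As log2(RPKM+1), the level of Alas2 in XXF mice was 8.04 in F1, 7.81 in F2, 8.50 in F3, 8.68 in F4 and 7.97 in F5. Among XYF mice the Alas2 level was 9.10 in F6, 8.11 in F7, 7.98 in F8 and 9.56 in F9. F6 and F9 lay above every other mouse, and F7 and F8 lay within the range of the XXF mice. In males the Alas2 level was 7.01 in XXM 2, 7.13 in XXM 5, 7.17 in XXM 6, 7.16 in XXM 7 and 8.17 in XXM 8. It was 5.70 in XYM 12, 7.19 in XYM 13, 6.20 in XYM 15, 5.48 in XYM 16 and 8.23 in XYM 9. XXM 8 and XYM 9 lay among the females, and the other 8 of the 10 males lay below all 9 females. Per length and depth Alas2 ran from 43.5 RPKM in XYM 16 to 752.7 RPKM in XYF F9, on 1560 to 28363 reads.

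Fech (Entrez Gene 14151, chromosome 18 from 64456542 to 64489098) encodes ferrochelatase, the enzyme that puts iron into the ring and so completes heme. The Fech level, on the same log2 scale, was 6.23, 5.68, 6.23, 6.59 and 6.01 in XXF F1 to F5 and 7.10, 5.67, 6.32 and 7.49 in XYF F6 to F9. In XXM mice Fech stood at 4.94 in 2, 4.96 in 5, 5.44 in 6, 5.28 in 7 and 6.27 in 8. In XYM mice Fech stood at 4.48 in 12, 5.63 in 13, 4.42 in 15, 4.60 in 16 and 6.50 in 9. As for Alas2, XYF F9 and F6 were the highest and all males but XXM 8 and XYM 9 lay below all females, but XYF F7 was the lowest female here. The level of Fech spanned 20.4 to 179.4 RPKM.

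Slc4a1 (Entrez Gene 20533, chromosome 11 from 102348820 to 102365281) encodes band 3, the anion exchanger that is the most abundant protein of the red cell membrane and anchors the skeleton to it. The log2 level of Slc4a1 was 7.83, 7.20, 7.81, 7.96 and 7.46 in XXF F1 to F5, and 9.17, 6.39, 8.18 and 9.50 in XYF F6 to F9. The XXF mice lay close together, whereas XYF F7 lay under all 5 of them and F6, F8 and F9 lay above. In XXM mice Slc4a1 stood at 5.95 in 2, 5.75 in 5, 7.09 in 6, 6.77 in 7 and 8.04 in 8. In XYM mice Slc4a1 stood at 5.13 in 12, 6.88 in 13, 5.15 in 15, 5.56 in 16 and 8.58 in 9. Against the XXF mice, 8 of the 10 males lay below all of them, but XYF F7 reached down among the males and left 5 of the 10 below every female. Slc4a1 went from 34.1 RPKM in XYM 12 to 723.9 RPKM in XYF F9, on 2467 to 62715 reads.

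Epb42 (Entrez Gene 13828, chromosome 2 from 121017891 to 121036877) encodes protein 4.2, which binds band 3 and ankyrin on the inner face of the membrane. The log2 level of Epb42 was 4.59, 3.98, 4.41, 4.74 and 4.28 in XXF F1 to F5, and 5.86, 3.41, 4.88 and 6.25 in XYF F6 to F9. In XXM mice Epb42 stood at 2.57 in 2, 2.39 in 5, 3.96 in 6, 3.37 in 7 and 4.79 in 8, and in XYM mice at 2.29 in 12, 3.83 in 13, 2.49 in 15, 2.52 in 16 and 5.42 in 9. Its order over the mice was like that of Slc4a1 but not the same. XYF F9 and F6 were at the top and XYF F7 was the lowest female. XXM 5 lay below XYM 15 and XYM 16 here but above them for Slc4a1, and 6 of the 10 males lay below all females. Epb42 was the weaker of these membrane genes, with 3.90 to 74.9 RPKM.

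**Figure D1:**
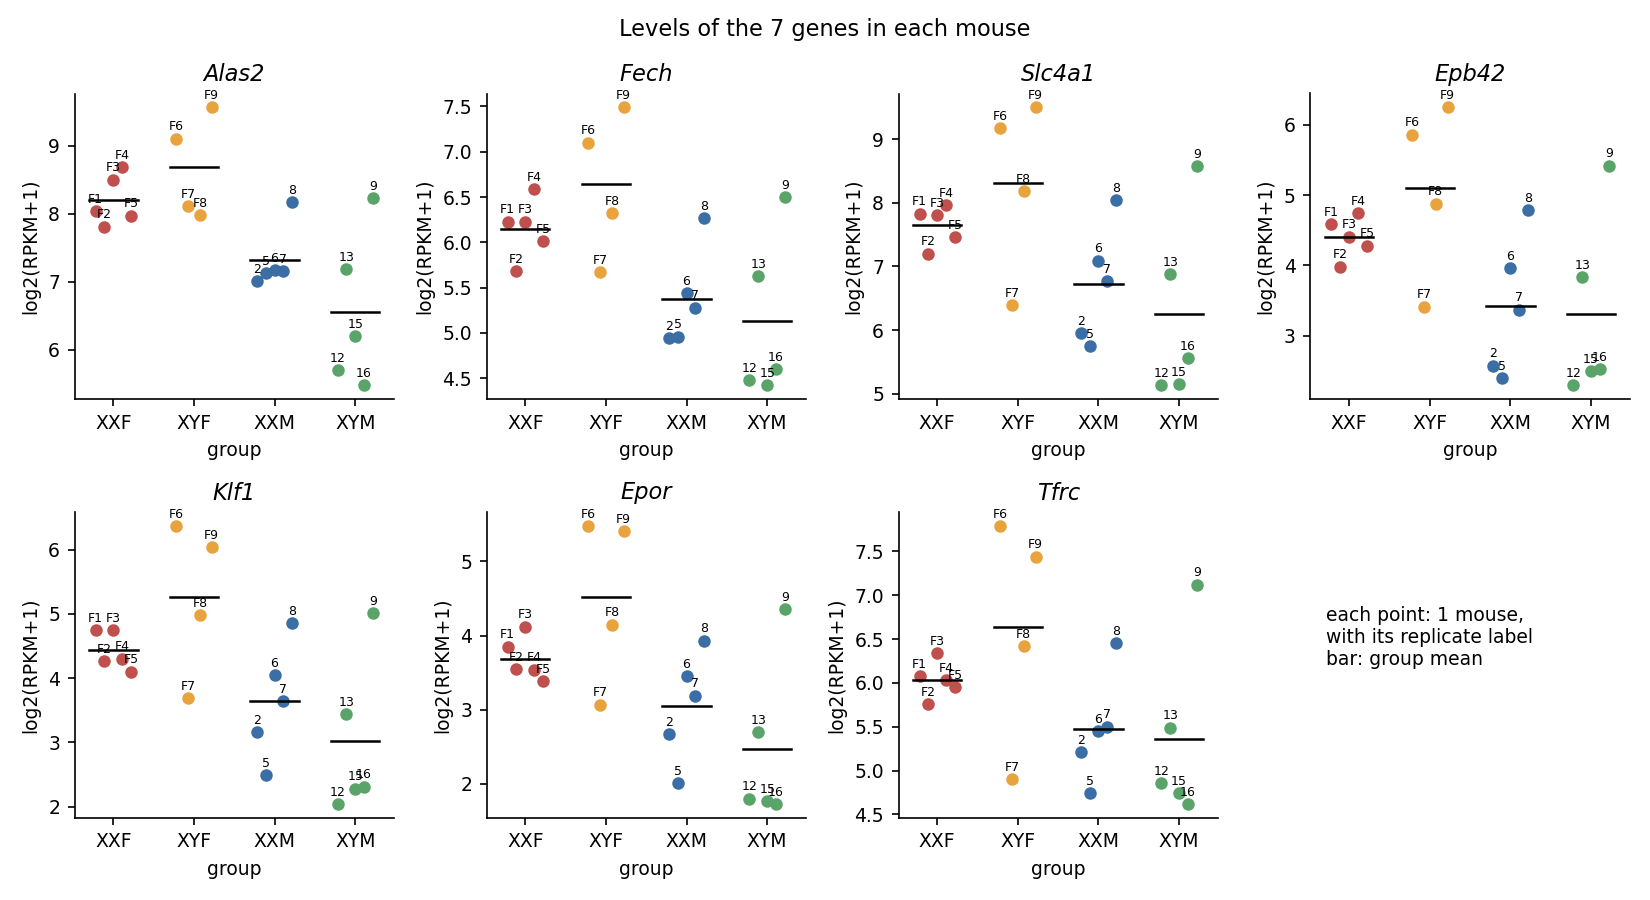
Level of each of the 7 genes, as log2(RPKM+1), in each of the 19 mice, by group. Each point is a mouse with its replicate label and the bar is the group mean, and for each gene XYM 9 and XXM 8 are the highest males, while XYF F9 and F6 are the highest mice.

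Klf1 (Entrez Gene 16596, chromosome 8 from 84901982 to 84905291) encodes an erythroid transcription factor that binds CACCC boxes of globin, heme and membrane genes. The log2 level of Klf1 was 4.75, 4.26, 4.75, 4.30 and 4.10 in XXF F1 to F5, and 6.37, 3.69, 4.98 and 6.04 in XYF F6 to F9. In XXM mice Klf1 stood at 3.16 in 2, 2.49 in 5, 4.05 in 6, 3.64 in 7 and 4.86 in 8, and in XYM mice at 2.04 in 12, 3.44 in 13, 2.28 in 15, 2.31 in 16 and 5.01 in 9. XYF F6 was the highest mouse here and F7 again the lowest female, and 7 of the 10 males lay below all females. Klf1 ranged from 3.12 to 81.6 RPKM on 76 to 1899 reads.

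Epor (Entrez Gene 13857, chromosome 9 from 21958897 to 21963576) encodes the receptor for erythropoietin. The log2 level of Epor was 3.85, 3.55, 4.12, 3.54 and 3.39 in XXF F1 to F5, and 5.48, 3.07, 4.15 and 5.41 in XYF F6 to F9. In XXM mice Epor stood at 2.67 in 2, 2.01 in 5, 3.45 in 6, 3.19 in 7 and 3.93 in 8, and in XYM mice at 1.80 in 12, 2.70 in 13, 1.77 in 15, 1.73 in 16 and 4.36 in 9. Of the 10 males, 6 lay below all females, and XXM 6, XXM 7, XXM 8 and XYM 9 did not. Epor had 2.32 to 43.5 RPKM on 72 to 1442 reads.

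Tfrc (Entrez Gene 22042, chromosome 16 from 32608896 to 32632794) encodes the transferrin receptor, the entry for iron, which erythroblasts carry in large amounts and dividing lymphocytes carry too. The log2 level of Tfrc was 6.08, 5.76, 6.34, 6.03 and 5.95 in XXF F1 to F5, and 7.79, 4.90, 6.42 and 7.44 in XYF F6 to F9. In XXM mice Tfrc stood at 5.21 in 2, 4.74 in 5, 5.45 in 6, 5.50 in 7 and 6.45 in 8, and in XYM mice at 4.86 in 12, 5.49 in 13, 4.74 in 15, 4.62 in 16 and 7.12 in 9. Of the 10 males 4 lay below all females, the smallest number for the 7 genes, and XXM 8 and XYM 9 lay above all 5 XXF mice. Its range was 23.7 to 219.9 RPKM.

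The 250 bases upstream of the transcription starts of Alas2, Klf1, Epor and Epb42 are shown as RefSeq gives them for GRCm38.p6, 5′ to 3′ on the strand of the gene. The windows are chrX:150547167-150547416 on the plus strand for Alas2, chr8:84901732-84901981 on the plus strand for Klf1, chr9:21963577-21963826 on the minus strand for Epor and chr2:121036878-121037127 on the minus strand for Epb42. Capitals mark the letters AGATAA or AGATAG or else TGATAA or TGATAG, the core that GATA factors bind, read on either strand (on the opposite strand TTATCT or CTATCT or else TTATCA or CTATCA).
Alas2: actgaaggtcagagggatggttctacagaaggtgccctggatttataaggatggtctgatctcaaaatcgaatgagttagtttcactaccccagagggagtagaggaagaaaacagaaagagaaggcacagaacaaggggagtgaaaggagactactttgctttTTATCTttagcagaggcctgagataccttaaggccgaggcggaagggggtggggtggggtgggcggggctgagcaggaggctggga
Klf1: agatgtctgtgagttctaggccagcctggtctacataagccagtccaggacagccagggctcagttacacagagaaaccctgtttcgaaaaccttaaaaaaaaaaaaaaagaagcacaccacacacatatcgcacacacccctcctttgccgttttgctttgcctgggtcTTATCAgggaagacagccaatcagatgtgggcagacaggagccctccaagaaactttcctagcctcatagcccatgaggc
Epor: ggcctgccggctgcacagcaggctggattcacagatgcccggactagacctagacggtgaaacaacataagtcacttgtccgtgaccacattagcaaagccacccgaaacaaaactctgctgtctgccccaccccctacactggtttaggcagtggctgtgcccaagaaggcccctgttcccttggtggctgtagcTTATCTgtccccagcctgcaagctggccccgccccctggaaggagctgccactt
Epb42: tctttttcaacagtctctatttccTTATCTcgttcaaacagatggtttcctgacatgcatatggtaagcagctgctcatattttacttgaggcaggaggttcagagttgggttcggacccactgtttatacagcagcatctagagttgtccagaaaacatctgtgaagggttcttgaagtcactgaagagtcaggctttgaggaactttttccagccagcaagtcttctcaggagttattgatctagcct
Each of these 4 windows held 1 match, on the opposite strand, which began 86 bases before the start in Alas2, 80 in Klf1, 54 in Epor and 226 in Epb42. Of 32851 RefSeq promoters of the same length, 26.5% held such a match, so the matches are a description and no more. CCACACCC, 1 form of the CACCC box (GGGTGTGG on the opposite strand), was in none of the 4 windows, and 3.20% of all promoters held it. Other forms of the box were not searched for, and shorter runs of these letters can be read in the printed windows. Tfrc has 2 starts in the same set and neither window held either motif. Of the 7 genes 5 were searched in this way, and no window was taken for Slc4a1 or Fech.

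The group means put the 7 genes in 1 order, XYF above XXF above XXM above XYM. In that order the mean log2 level of Alas2 was 8.69 ± 0.77 (SD, n = 4), 8.20 ± 0.37 (SD, n = 5), 7.33 ± 0.47 (SD, n = 5) and 6.56 ± 1.15 (SD, n = 5). That of Slc4a1 was 8.31 ± 1.40 (SD, n = 4), 7.65 ± 0.31 (SD, n = 5), 6.72 ± 0.93 (SD, n = 5) and 6.26 ± 1.48 (SD, n = 5). With all mice and all groups in the fit, the test set no neighbours in this order apart for any of the 7 genes. With XXF and XXM mice alone in the fit, it set them apart for Alas2 and Fech. Without XYM 9 it set XXM and XYM mice apart for Alas2. The SD was smallest in XXF mice for each gene, between 0.21 for Tfrc and 0.37 for Alas2, and the XY groups were the widest for each gene, with SDs of up to 1.48.

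Males were compared with females to ask what goes with gonadal sex, the mean of the XX and the XY difference being taken. All 7 genes were lower in males and called, a gene being called when its adjusted p was under 0.1 and its difference passed the fold threshold that the study's methods give. Over all 14186 genes tested, 7.32% were called in this comparison, 5.36% as lower in males. The median over the 7 genes was -1.39, beside 0.02 over all genes tested. Alas2 was lower by a log2 difference of -1.50 (SE 0.32, adjusted p = 0.00285) and Fech by -1.15 (SE 0.29, adjusted p = 0.00805). The membrane genes Slc4a1 and Epb42 differed by -1.49 (SE 0.47, adjusted p = 0.0249) and -1.39 (SE 0.44, adjusted p = 0.0256). Klf1 differed by -1.52 (SE 0.41, adjusted p = 0.0113), Epor by -1.35 (SE 0.37, adjusted p = 0.0130) and Tfrc by -0.92 (SE 0.36, adjusted p = 0.0651). In bulk RNA, fewer erythroid cells and less of these RNAs per cell cannot be told apart. How far the lysis of red cells went in each spleen is not given, and its part in these differences was not tested. The call of Tfrc was lost without XXF F3, XYF F6, XYF F9, XXM 5, XYM 12 or XYM 16, where its difference lay between -0.88 and -0.72, and with no filter on low values (-0.92, adjusted p = 0.103, in a range of 0.0103 to 0.156 over the alternatives). The other 6 genes stayed called whichever mouse was left out.

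XYM 9 lay farther from its own group's mean than any other mouse did from its own for each of the 7 genes, by 1.38 for Fech to 2.32 for Slc4a1, and without it the differences were larger. Between males and females Slc4a1 then differed by -1.78, Klf1 by -1.77, Alas2 by -1.71, Epb42 by -1.65, Epor by -1.58, Fech by -1.32 and Tfrc by -1.13, all of them called. Without XXM 8 all 7 were called too, with -1.68 for Klf1, -1.65 for Slc4a1, -1.60 for Alas2, -1.56 for Epb42, -1.46 for Epor, -1.26 for Fech and -1.04 for Tfrc. XYF F7 was the lowest female for each gene but Alas2, and without it Alas2 differed by -1.59, Slc4a1 by -1.81 and Tfrc by -1.21.

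Within XY mice the same comparison, XYM with XYF, showed all 7 genes lower in XYM mice and called, where 15.8% of the genes tested were called and 8.13% were called lower. The median over the 7 genes was -2.05, beside 0.02 over all genes. Klf1 had the largest log2 difference of the 7, -2.25 (SE 0.59, adjusted p = 0.0124), and Alas2 the smallest adjusted p, 0.00511, at -2.13 (SE 0.46). Epor differed by -2.05 (SE 0.54, adjusted p = 0.0123), Slc4a1 by -2.05 (SE 0.68, adjusted p = 0.0328) and Epb42 by -1.79 (SE 0.63, adjusted p = 0.0428). Fech differed by -1.52 (SE 0.42, adjusted p = 0.0147) and Tfrc by -1.27 (SE 0.53, adjusted p = 0.0757). Of the 5 XYM mice, 4 lay below all 4 XYF mice for Alas2, Fech, Klf1 and Epor, and 3 did for Slc4a1, Epb42 and Tfrc. Without XYM 9 all 7 were called with larger differences: Klf1 -2.75, Slc4a1 -2.63, Alas2 -2.54, Epor -2.53, Epb42 -2.31, Fech -1.87 and Tfrc -1.71. With the 2 compared groups alone in the fit, Slc4a1, Epb42 and Tfrc were not called (adjusted p = 0.108, 0.115 and 0.190), and without XYF F6 they were not called either (-1.76, -1.53 and -0.88). Epb42 was not called without XYF F9, XYM 12 or XYM 16, and Tfrc was not called without those mice, XYM 13 or XYM 15, or with no filter on low values. Over all these alternatives the adjusted p lay between 0.00342 and 0.113 for Slc4a1, between 0.00523 and 0.136 for Epb42 and between 0.00987 and 0.264 for Tfrc.

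Within XX mice the 7 genes were lower in XXM than in XXF mice by smaller log2 differences, -0.98 for Epb42, -0.93 for Slc4a1, -0.87 for Alas2, -0.79 for Klf1, -0.77 for Fech, -0.64 for Epor and -0.56 for Tfrc. Without XXM 5 they were smaller for Klf1 (-0.51), Epor (-0.38) and Tfrc (-0.38), and without XXM 8 larger for Epb42 (-1.33), Slc4a1 (-1.26) and Klf1 (-1.10). None of these was called by limma, with adjusted p between 0.284 and 0.596, where 4.22% of the genes tested were called. The count was 0 of 7 also at an unadjusted p under 0.05 and with limma-voom on the recovered reads. Still, 4 of the 5 XXM mice lay below all 5 XXF mice for each gene but Epor, for which 3 did, and XXM 8 lay among or above the XXF mice each time. With the 2 compared groups alone in the fit, 2 of the 7 were called, Alas2 and Fech, beside 710 of all 14186 genes.

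XX and XY mice of the same gonads were compared to ask what goes with the sex chromosomes. In females the 7 log2 differences, XXF minus XYF, were all below 0, from -0.84 for Klf1 and Epor to -0.49 for Alas2, with SEs between 0.42 and 0.68. Single XYF mice moved them: from -0.49 to -0.20 for Alas2, from -0.50 to -0.22 for Fech, from -0.70 to -0.32 for Epb42 and from -0.66 to -0.26 for Slc4a1 without F9, and from -0.84 to -0.47 for Klf1, from -0.84 to -0.52 for Epor and from -0.60 to -0.22 for Tfrc without F6. Without F7 they grew, to -1.36 for Klf1, -1.32 for Epor, -1.30 for Slc4a1, -1.26 for Epb42, -1.18 for Tfrc and -0.83 for Fech. In males the 7 differences, XXM minus XYM, were all above 0, from 0.10 for Tfrc to 0.77 for Alas2, but without XXM 8 those of Epb42 (-0.24) and Tfrc (-0.14) turned below 0. None was called by limma in either. The adjusted p ran from 0.402 to 0.607 for females and from 0.253 to 0.921 for males, where 1.38% and 2.96% of the genes tested were called. At an unadjusted p under 0.05 the count was 0 of 7 in each, as it was with limma-voom. Alas2, the member on the X chromosome, was called higher in XXM than in XYM mice without XYM 9, with 1.19 (adjusted p = 0.0735, in a range up to 0.508 over the alternatives), beside 778 of all 14186 genes called in that fit.

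Averaged over both gonadal sexes, XX minus XY lay between -0.30 for Epb42 and 0.14 for Alas2, and limma called 0 of the 7 genes (adjusted p of 0.700 or more), 0 at an unadjusted p under 0.05 and 0 with limma-voom, where 1.72% of the genes tested were called. With each mouse left out, the averaged difference lay between -0.58 and -0.03 for Epb42, between -0.54 and -0.03 for Tfrc and between 0.01 and 0.35 for Alas2. The XX against XY difference in females minus that in males was itself tested. It was below 0 for all 7 genes, -1.46 for Klf1, -1.41 for Epor, -1.26 for Alas2, -1.11 for Slc4a1, -0.80 for Epb42, -0.76 for Fech and -0.70 for Tfrc. It shrank without XYF F9 to -0.72 for Slc4a1, -0.47 for Fech and -0.42 for Epb42, and without XYF F6 to -0.32 for Tfrc, and it grew without XYF F7 to -1.75 for Slc4a1, -1.37 for Epb42 and -1.28 for Tfrc. Limma called 0 of the 7, with adjusted p between 0.259 and 0.595, 0 at an unadjusted p under 0.05 and 0 with limma-voom, where 0.0846% of the genes tested were called. So the wider gap between males and females in XY than in XX mice was not past the threshold for any of the 7 genes. Without XYM 9 Alas2, Klf1 and Epor were called, beside 1694 of all 14186 genes, and with array weights Epor was, beside 1910 genes. These comparisons share groups, and their values are set side by side for that reason only.

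**Figure D2:**
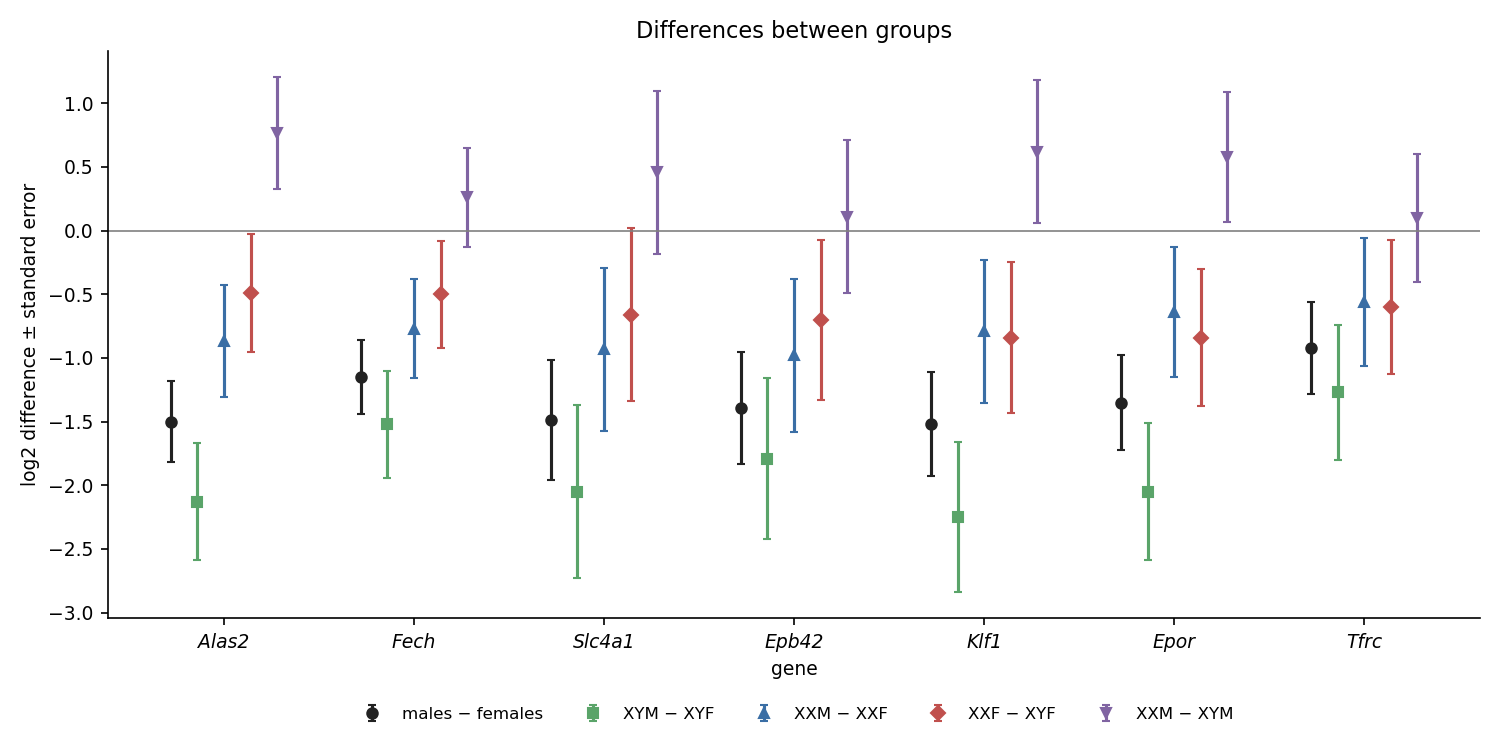
Log2 differences of the 7 genes in 5 comparisons, with standard errors from limma. Males minus females and XYM minus XYF lie below 0 for each gene, and XXM minus XYM lies above 0 with the smallest values for Tfrc and Epb42.

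Mouse by mouse, the 7 genes moved as a block. XXF F3, XYF F6, XYF F9, XXM 8, XYM 13 and XYM 9 lay above their own group's mean for 7 of 7 genes, with XYM 9 highest at a median of 1.89 on the log2 scale. XXF F2, XXF F5, XYF F7, XYF F8, XXM 2, XXM 5, XYM 12, XYM 15 and XYM 16 lay at or below it for all 7, with XYF F7 lowest at a median of -1.58. In 4 of the mice, XXF F1, XXF F4, XXM 6 and XXM 7, the genes went both ways.

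**Figure D3:**
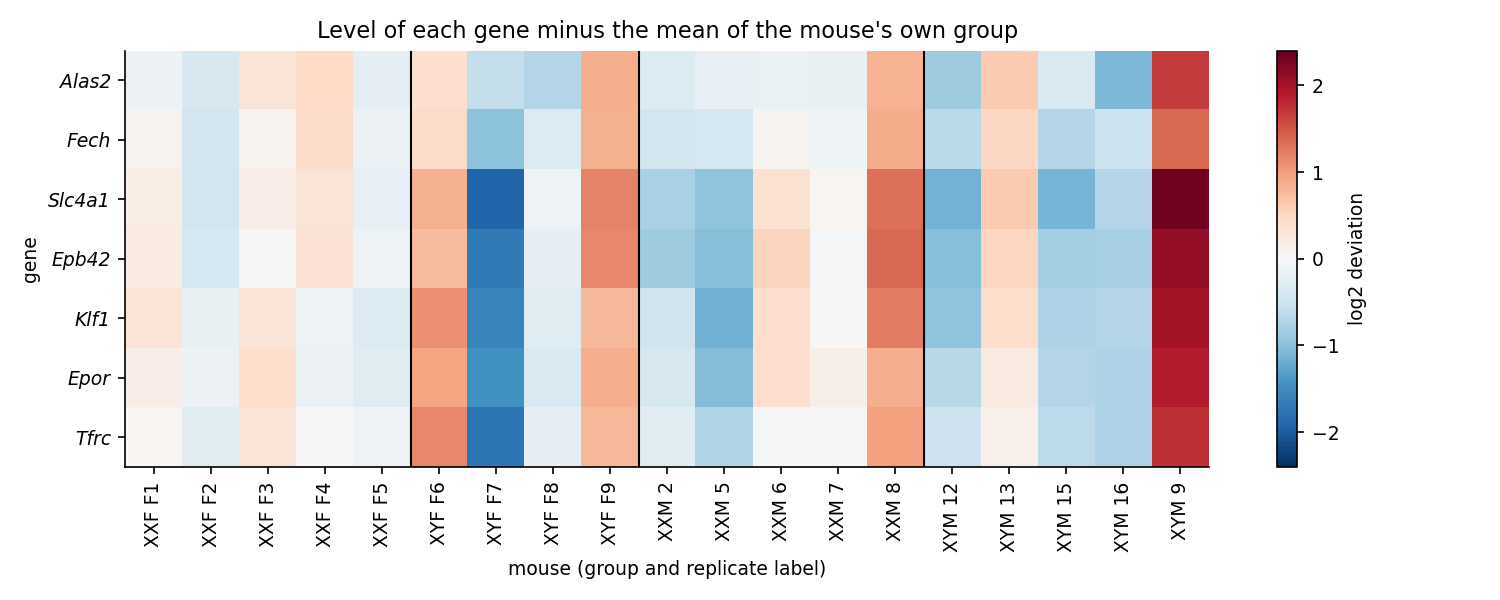
Log2 level of each gene in each mouse minus the mean of the mouse's own group. Columns are the 19 mice and rows the 7 genes, and most columns have the same colour from top to bottom, with XYM 9 the highest and XYF F7 the lowest.

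Slc4a1 served as the reference for this pattern, and each gene's level was fitted on the mouse's own Slc4a1 level with a mean for each group. All 6 other members had a positive slope that was called (adjusted p under 0.1), where 12.3% of the 14185 genes tested had a positive and 10.6% a negative slope that was called. Within groups over 19 mice, Epb42 had a Pearson r of 0.993 and a Spearman rho of 0.988 with Slc4a1, each with a permutation p of 1.0e-05. Fech had an r of 0.976 and a rho of 0.967, and Klf1 an r of 0.973 and a rho of 0.975, with that same permutation p, which is the smallest that 100000 permutations can give. For Epor the r was 0.964 (permutation p = 1.0e-05) and the rho 0.928 (permutation p = 6.0e-05). Tfrc had an r of 0.954 (permutation p = 3.0e-05) and a rho of 0.928 (permutation p = 6.0e-05). Alas2 followed least closely, with an r of 0.870 (permutation p = 2.4e-04) and a rho of 0.881 (permutation p = 2.0e-05). Without XYF F9 and XYM 12, the 2 mice farthest from the median of Slc4a1, r was 0.992 for Epb42, 0.972 for Fech and for Klf1, 0.960 for Epor, 0.958 for Tfrc and 0.837 for Alas2. Of single mice, XYM 9 lowered r most when left out, to 0.789 for Alas2, 0.929 for Tfrc, 0.942 for Epor, 0.958 for Klf1, 0.964 for Fech and 0.990 for Epb42. The adjusted p of the 6 slopes, over all genes, lay between 1.73e-12 for Epb42 and 5.18e-05 for Alas2.

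The slopes were not tested against each other. Per unit of log2 Slc4a1 within groups, Epb42 rose by 0.93 (SE 0.03), Klf1 by 0.85 (SE 0.05), Epor by 0.76 (SE 0.05) and Tfrc by 0.74 (SE 0.06). Fech rose by 0.60 (SE 0.04) and Alas2 by 0.59 (SE 0.08). The level of Alas2 minus that of Slc4a1 shows the looser tie. It was 1.72 in XYF F7, 1.38 in XXM 5, 1.06 in XXM 2 and 1.05 in XYM 15, but 0.56 in XYM 12 and -0.09 in XYM 16, all of them mice low in Slc4a1, and it was -0.35 in XYM 9, a mouse high in it. The same measure for Epb42 stayed between -3.40 and -2.66 over the 19 mice.

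**Figure D4:**
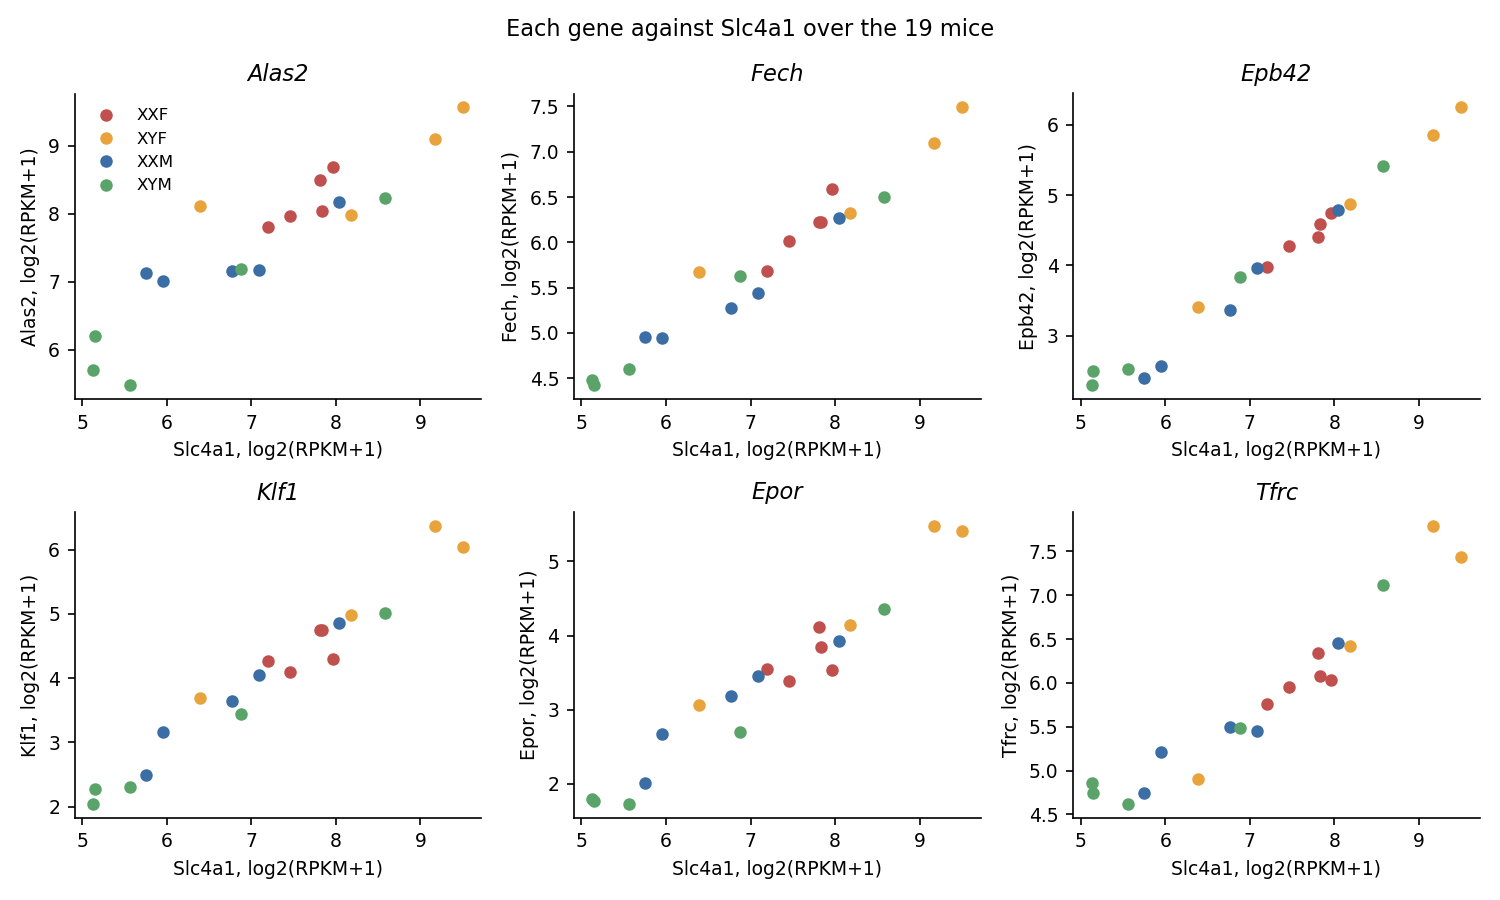
Level of each of the other 6 genes against that of Slc4a1, both as log2(RPKM+1), with the 19 mice coloured by group. Epb42 lies along a line through all groups, and Alas2 scatters more, with XYF F7 above the other mice of its Slc4a1 level.

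The 10 genes of no list whose pattern within groups was most like that of Slc4a1 over the 19 mice were Slc6a9 (r = 0.990), Slfn14 (0.989), Gclm (0.987), Marchf8 (0.985), Stom (0.985), Sox6 (0.984), Fhdc1 (0.982), Mylk3 (0.980), Ypel4 (0.980) and Sowaha (0.980). They are named for this measure alone.

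The rest of the heme pathway moved with Alas2 and Fech in part. Of 12 further genes of heme synthesis and its transport, 7 were called lower in males than in females (median -0.81) and 9 in XYM than in XYF mice (median -1.24). Urod, a decarboxylase in the middle of the chain, differed by -1.09 (SE 0.24, adjusted p = 0.00373) between males and females and by -1.65 in XY mice, and Tmem14c, a porphyrin carrier of the mitochondrial membrane, by -0.77 and -1.18. Alas1, the form of the first enzyme that other tissues use, Clpx, which acts on ALAS protein, and the mitochondrial iron carrier Slc25a37 were called in neither comparison. With Slc4a1, 10 of the 12 had a called positive slope, and Tmem14c and Clpx did not. Without XYM 9 the r of Alas1 fell from 0.682 to 0.453.

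Of 17 further genes of the red cell membrane and its skeleton, 16 were called lower in males (median -1.27) and 16 in XYM than in XYF mice (median -1.80). The Rh protein gene Rhd differed by -1.95 (SE 0.48, adjusted p = 0.00687) and -2.69. Xk, which pairs with the Kell protein, was the gene not called in either. All 17 had a called positive slope on Slc4a1, with a median r of 0.971, beside -0.117 over all genes tested.

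Globin genes, whose protein takes up the heme, had the largest median log2 difference of the lists both in males against females and in XYM against XYF mice. Of 11 listed globin genes 9 are in the table, and 7 passed the filter on low values. In males 6 of the 7 were called lower (median -1.53) and in XYM mice all 7 (median -2.25). Together the 9 took 0.946, 1.47, 2.17, 1.71 and 1.23% of the reads in XXF F1 to F5, and 3.39, 1.44, 1.13 and 2.47% in XYF F6 to F9. They took 0.924% in XXM 2, 0.726% in XXM 5, 0.536% in XXM 6, 0.529% in XXM 7 and 1.07% in XXM 8. In XYM mice they took 0.170% in 12, 0.507% in 13, 0.377% in 15, 0.113% in 16 and 1.08% in 9. XXM 8 and XYM 9 again had the largest shares of the males, and XYF F6 and F9 the largest of all mice. Hbb-bs, the most abundant of them, lay between 916.2 and 27383.9 RPKM and differed by -1.81 (SE 0.38, adjusted p = 0.00270) between males and females and by -2.45 in XY mice. Hba-a1 differed by -1.88 and -3.22. On Slc4a1 6 of the 7 had a called positive slope (median r 0.596), but without XYM 9 the r of Hba-a2 fell from 0.596 to 0.373 and that of Hbb-bs from 0.595 to 0.362. Between XX and XY males, 2 of the 7 globin genes were called higher in XXM mice, Hba-a1 by 1.55 (SE 0.50, adjusted p = 0.0940) and Hba-a2 by 1.52 (SE 0.44, adjusted p = 0.0808), where 1.13% of the genes tested were called higher. The adult globin genes resemble each other closely, and the deposited records do not say what was done with reads that fit more than 1 of them.

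The controllers were divided. Of 10 further erythroid transcription factor genes, 5 were called lower in males and in XYM mice, with medians over the 10 of -0.35 and -0.55. Gata1, the master factor of the lineage, differed by -1.30 (SE 0.37, adjusted p = 0.0153) and -2.07, and its partner Tal1 by -1.50 and -2.13. Bcl11a, a repressor of embryonic globin genes that B cells carry too, was called higher, by 0.74 (SE 0.10, adjusted p = 1.14e-04) and 0.67. Higher in males and called were 1.96% of the genes tested, and 7.63% were higher in XYM than in XYF mice. Of 9 further genes of iron uptake and handling, 2 were called lower in males (median -0.43) and 5 in XYM mice (median -0.63). Those called in both were Tfr2, the other transferrin receptor, with -0.77 and -1.31, and Steap3, the ferrireductase of the endosome, with -0.74 and -1.19. Of 9 erythropoietin signalling genes that were tested, 1 was called lower in each comparison (medians -0.13 and -0.30), where 5.36% and 8.13% of all genes were. It was Bcl2l1, the survival gene downstream of the receptor, with -0.87 (SE 0.30, adjusted p = 0.0379) and -1.38. With limma-voom 2 of the 9 were called lower in each comparison, and 1 was called higher in XYM mice. The erythropoietin gene itself, Epo, had 0 reads in each of the 19 mice, where a count of 0 allows up to 3 reads in each library.

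Genes of late steps moved with the members as well, and proliferation genes did so in part. Of 12 genes of terminal erythroid maturation, 9 were called lower in males (median -0.93) and 10 in XYM mice (median -1.43). All 12 had a called positive slope on Slc4a1. Rhd is in this list and in that of the membrane genes, so both counts hold it. Car2, a carbonic anhydrase, differed by -1.50 (SE 0.41, adjusted p = 0.0128) and -2.24, and Hemgn by -1.62 and -2.42. Of 13 proliferation genes, 6 were called lower in each comparison (medians -0.50 and -0.75), and 12 had a called positive slope on Slc4a1. The summed level of the 13 lay between 201.7 and 670.6 RPKM in males and between 262.6 and 858.0 in females.

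**Figure D5:**
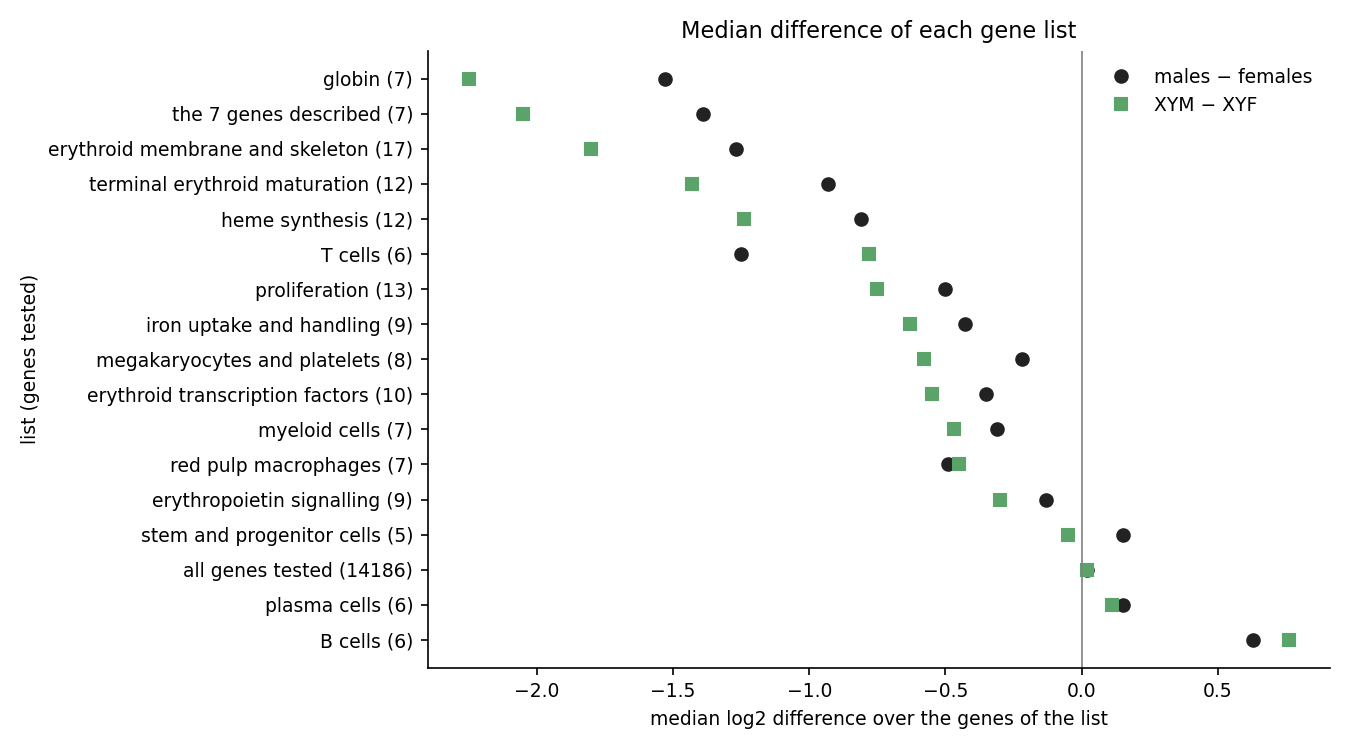
Median log2 difference over the tested genes of each list, for males minus females and for XYM minus XYF. The globin genes and the 7 genes described lie lowest, all genes tested lie at 0.02, and the B cell markers lie highest.

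To see what differed between groups apart from this shared variation, the fit was repeated with the mouse's Slc4a1 level as a covariate, a step chosen after seeing the data. At a given Slc4a1 level, 1 of the 6 other members was called lower in males, Alas2 with -0.62 (adjusted p = 0.0363), where 6.36% of the genes tested were called lower. In XYM against XYF mice it was the same 1 gene with -0.92 (adjusted p = 0.0351), where 9.51% were. Fech, Epb42, Klf1, Epor and Tfrc were not called in either. For some of them the fold threshold alone was missed: Fech in males (-0.25, adjusted p = 0.0508), and Klf1 (-0.51, adjusted p = 0.0529), Epor (-0.49, adjusted p = 0.0710) and Fech (-0.30, adjusted p = 0.0983) in XYM against XYF mice. Of the 7 globin genes, 5 and 6 were called lower, with Hba-a1 at -2.06 and Hbb-bs at -1.54 in XY mice. Without XYF F7 the calls of Alas2 were lost (-0.34 and -0.45), and so were those of Hbb-bs (-0.83 and -1.01) and Hba-a2 (-0.68 and -1.22). The call of Hba-a1 was lost too, through a larger adjusted p (0.114 and 0.101), while its differences hardly moved. Hba-a2 was not called in males without XXM 8 either (-0.87). Hbb-b1 was not called in males when XXF F2, XXF F3, XXM 6, XXM 7, XXM 8 or XYF F7 was left out (-0.90 to -0.67). In XY mice it was not called without XXM 2, XXM 5, XXM 8, XYF F6, XYF F7, XYM 12, XYM 13 or XYM 16 (-1.33 to -0.84), so the counts of 5 and 6 depend on single mice. Without XYF F8 or XYM 9, 2 of the 6 members were called in XY mice. Alas2 was not called in males without XXM 6 or XYM 16 either (-0.56 and -0.58). In the last 2 cases the difference fell just short of the fold threshold with an adjusted p of 0.0698 and 0.0301, and in XY mice XYF F7 was the only mouse whose omission removed the call. Between XX and XY males, Hba-a1 and Hba-a2 were called higher in XXM mice at a given Slc4a1 level too (1.29 and 1.33), where 2.91% of the genes tested were called higher.

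Markers of other splenic cells also differed between the groups. Of 6 T cell markers, 5 were called lower in males than in females (median -1.25) and 5 in XYM than in XYF mice (median -0.78). In XXM against XXF mice, where none of the 7 genes was called, all 6 T cell markers were called lower (median -1.63), where 2.91% of the genes tested were called lower. The 6 summed to 762.7, 1119.9, 963.5, 793.6 and 955.3 RPKM in XXF F1 to F5 and to 783.8, 1000.6, 746.5 and 374.4 RPKM in XYF F6 to F9. In XXM mice they summed to 364.2 in 2, 378.5 in 5, 330.8 in 6, 262.2 in 7 and 255.7 in 8, and in XYM mice to 388.2 in 12, 362.3 in 13, 501.5 in 15, 409.3 in 16 and 231.7 in 9. The lowest sum in females was that of XYF F9 and the lowest in males that of XYM 9, mice high in the 7 genes. All 6 T cell markers had a called negative slope on Slc4a1. RPKM is scaled to the size of the library, so a larger share of other RNAs in a mouse also lowers these values. The slopes cannot tell this from fewer T cells. Cd3g was the most abundant of the T cell markers and differed by -1.44 (SE 0.19, adjusted p = 8.67e-05) between males and females.

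B cell markers ran the other way. Of 6 markers, 4 were called higher in males (median 0.63) and 5 in XYM mice (median 0.76), among them Cr2 with 0.70 (SE 0.10, adjusted p = 1.45e-04) and 0.91. They summed to 2705.3, 2679.2, 2348.5, 2589.4 and 2557.3 RPKM in XXF F1 to F5 and to 1466.9, 2369.9, 2399.7 and 1204.2 RPKM in XYF F6 to F9. In XXM mice the sums were 3782.6 in 2, 4082.3 in 5, 3571.5 in 6, 3666.7 in 7 and 3336.7 in 8, and in XYM mice 3202.1 in 12, 2706.0 in 13, 3534.0 in 15, 3006.8 in 16 and 2041.8 in 9. XYF F6, XYF F9 and XYM 9, which had the most Slc4a1, had the least of the B cell markers, and 5 of the 6 had a called negative slope on it. The same limit from scaling to library size holds for these slopes.

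Of 7 myeloid markers limma called 0 in either comparison (medians -0.31 and -0.47), with 2 and 1 at an unadjusted p under 0.05 and 0 with limma-voom in both. Their sum was 46538.8 RPKM in XYM 9, beside 3122.2 in 12, 8256.3 in 13, 3962.6 in 15 and 3389.2 in 16, and it was 45753.6 RPKM in XYF F9, beside 11646.7 in F6, 16071.8 in F7 and 7341.5 in F8. In XXF F1 to F5 it was 5075.0, 4068.4, 5280.1, 5844.4 and 4878.9 RPKM, and in XXM 2, 5, 6, 7 and 8 it was 6327.4, 5822.5, 6343.7, 4857.0 and 4191.7. S100a9 was the most abundant, at 1295.6 to 24727.6 RPKM, and 6 of the 7 had a called positive slope on Slc4a1. No marker of these 3 lists was at 0 in every mouse. All 5 stem and progenitor markers also had a called positive slope on Slc4a1 (median r 0.793). Their sum was 294.3 RPKM in XYM 9 and 236.3 RPKM in XYF F9, against at most 68.7 RPKM in any other mouse. Mpo was the most abundant of the 5 and ran from 6.93 to 271.2 RPKM, so the largest sum rests mostly on this gene. XYM 9 and XYF F9 are also the mice with the highest sums of the myeloid markers. The 7 red pulp macrophage markers summed to 944.0 RPKM in XYF F7, the highest of all mice, and to 206.8 RPKM in XYM 9, the lowest. Of these markers 1 had a called negative slope on Slc4a1. The part of T cells, B cells, myeloid cells, red pulp macrophages and progenitors in the differences of the 7 genes was not tested.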

How the data were processed

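RNA-seq of splenocytes from 19 HKSP-immunised mice was used, 1 library each, in groups of 5 XXF, 4 XYF, 5 XXM and 5 XYM. The values are log2(RPKM+1) as deposited by the authors, who used Subread on mm10 and then featureCounts; neither tool's version nor the annotation is given, and the kit is KAPA in the methods and NEBNext in the records. Whole reads were recovered from their steps for 21317 of 21317 genes with a read (100.0%, tolerance 0.05 reads), and the method was tested on simulated data. Floors from reads cover counting error only. limma 3.58.1 in R 4.3.3, with a spread trend, fitted 1 mean per group to 14186 genes, and a gene was called at a Benjamini-Hochberg adjusted p under 0.1 and a log2 difference over 0.585 in size. These tests and all p are two-sided and measure the spread between these mice. Differences on this scale understate the change of weak genes. The family held 7 comparisons and 1 slope on Slc4a1, tested within groups with 100000 permutations. The members and the 15 lists, matched by Entrez Gene ID through RefSeq, were chosen with earlier results of these data known. Genes named are the members, list genes, and the 10 genes of no list with the highest r with Slc4a1. Alternatives were a pseudocount of 0.5, no filter, median ratio rescaling, the compared groups alone, array weights, no fold threshold, limma-voom on recovered reads, no group terms for the slope, and each mouse left out. The covariate fit was chosen after seeing the data. Of the remaining lists, in males and in XYM mice 1 and 2 of 7 red pulp macrophage markers, and 0 and 4 of 8 megakaryocyte and platelet markers, were called lower. Of the latter 4 had an unadjusted p under 0.05 in males, not all of them lower, and limma-voom called 0 and 5. Of 6 plasma cell markers 1 was called higher in each and 1 lower in XYM mice, and of 5 stem and progenitor markers 0 were called, with 1 at an unadjusted p under 0.05 in each and 0 and 1 with limma-voom. Other steps ran in Python 3.11.15 (scipy 1.17.1, pandas 2.3.3, numpy 2.4.6; figures in matplotlib 3.10.9). Reads were not realigned.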

Additional observations from a re-analysis of the deposited data

Results flagged for a closer look

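Each of the 7 genes was looked at in each of the 4 groups for a mouse far from the rest. In 1 of 28 groups there was such a mouse, and chance alone gives about 1 in 20 groups. It was XXM 8 for Alas2, with a log2 level of 8.17 beside 7.01 to 7.17 in the other XXM mice. Its gap to the nearest of them was 0.860 of the range of the group. XXM 8 was the highest XXM mouse for each of the other 6 genes too.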

How the results depend on the processing

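Of the 7 members, 6 to 7 were called lower in males whichever mouse was left out. In XYM against XYF mice 4 were called with the compared groups alone and 4 to 7 with each mouse left out (4 without XYF F6), and 2 were called in XX mice with those groups alone. Without the fold threshold the counts of "genes called, XX against XY in females" went from 196 to 345, of "genes called, XX against XY in males" from 420 to 1115, of "genes called, XX against XY over both gonadal sexes" from 244 to 983, of "genes called, males against females in XX mice" from 598 to 1348, of "genes called, males against females in XY mice" from 2236 to 5661 and of "genes called, males against females over XX and XY mice" from 1039 to 5468. For XX against XY, the compared groups alone gave 88 in females and 121 in males, array weights 1027 and no filter 211 in males, and limma-voom 395 over both sexes. limma-voom gave 1714 for males against females. With each mouse left out, XX against XY gave 56 (without XYF F9) to 850 (without XYF F7) genes in females, with large moves also without XXF F1, XXF F4, XXF F5, XYF F6, XYF F8 or XYM 9. In males it gave 51 (without XXM 2) to 1213 (without XYM 15), with large moves also without XYM 9, XYM 12, XYM 13, XYM 16, XXM 5, XXM 6, XXM 7 or XXF F5, and 0 to 1 member (1 without XYM 9). Over both sexes it gave 148 (without XYF F9) to 518 (without XYF F7), with a large move also without XYM 15. XYM against XYF gave 1395 (without XYF F6) to 2958 (without XYM 9). For the difference of the XX against XY effects (12 genes), array weights gave 1 member and 1910 genes, limma-voom 4 and no filter 6. With each mouse left out it gave 0 to 3 members (3 without XYM 9) and 0 genes (without XXF F1, XXF F2, XXF F5, XYF F6, XYM 12 or XYM 16) to 1694 genes (without XYM 9), with 1197 without XXF F3, 808 without XYM 15, 749 without XYF F8, 7 without XXM 2, XYF F9 or XYM 13, 3 without XXF F4 and 1 without XXM 6. For "genes called, slope on Slc4a1 within groups" (3243) the counts were 2111 without the 2 farthest mice and 2095 (without XYF F9) to 3543 (without XYF F6) with each mouse left out. Small differences that were not called changed sign with a mouse left out: XXM minus XYM lay between -0.24 and 0.63 for Epb42 and between -0.14 and 0.54 for Tfrc, and XX minus XY over both sexes between -0.28 and 0.05 for Fech, -0.37 and 0.14 for Klf1, -0.37 and 0.11 for Epor, and -0.42 and 0.19 for Slc4a1 (0.01 with array weights). The cause was not tested.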
